A study of Caenorhabditis elegans with 9 samples.

Results

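DNase I hypersensitive sites (DHS) are stretches of open chromatin, and most noncoding DHS of this study were tied to 1 gene by the gene annotation deposited with them. A small set was tied to 2 genes at once. These DHS were found as the positions listed with at least 2 different WormBase identifiers in the gene annotation of a stage. In L1 arrest 114 of 16084 noncoding DHS were of this kind, and in the embryo 221 of 26644. None was listed with 3 or more genes. Merged across the stages by overlap they made 242 sites.

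Chromatin was mapped by DNase-seq, in which DNase I cuts accessible DNA in isolated nuclei, in wild-type N2 Caenorhabditis elegans at 2 stages. Larvae in L1 arrest, the halted state of larvae that hatch without food, gave 5 replicates (V to Z), and embryos of around 40 cells gave 4 (A to D). All animals were N2 and all nuclei came from frozen material, no fed larvae were among the samples, and whole animals were used, so the lists do not say in which cells a site was open. Each stage has 1 merged list per file type, so no value below can be set against the spread between replicates, and the read depth behind a site is unknown.

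A worm genome is compact, and one gene often lies inside an intron of another. Introns can hold enhancers, so a site inside 2 overlapping genes has no single obvious target from position alone. Some overlapping pairs are functional units, of which the cholinergic locus is the best known: unc-17, the vesicular acetylcholine transporter, and cha-1, choline acetyltransferase, share a promoter and a leading exon.

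The DHS assigned to 2 genes were almost all intronic. In L1 arrest 110 of 114 (96.5%) and in the embryo 217 of 221 (98.2%) were listed as introns, against 40.0% of L1 and 43.4% of embryo DHS with 1 gene. Since the gene annotation also chose these DHS, their location is tied to the choice and is no finding about chromatin. The 4 intergenic ones in each stage belonged to the same 3 pairs: unc-17 with cha-1, which had 2, eat-18 with lev-10, and ceh-8 with ZK265.9. By chromosome they were spread over all 6, with no test: chromosome IV held 23.7% of them in L1 arrest and 22.2% in the embryo, against 15.7% of L1 and 15.04% of embryo DHS with 1 gene. Shares below those of DHS with 1 gene included chromosome II in L1 arrest, with 11.4% against 16.6%, and chromosome V in the embryo, with 11.3% against 17.4%.

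They were also short. The median width was 130.5 bp in L1 arrest and 81 bp in the embryo, where DHS with 1 gene had a median of 150 bp in both stages. Under 150 bp, the width of the peak caller's window, were 55.3% of the DHS assigned to 2 genes in L1 arrest, against 20.3% of those with 1 gene. In the embryo these shares were 65.2% and 26.8%. Among intronic DHS alone the gap was smaller, 57.3% for those with 2 genes against 34.7% for those with 1 in L1 arrest, and 66.4% against 45.5% in the embryo. The short ones were parts of wider peaks: all 63 in L1 arrest and all 144 in the embryo lay in whole DHS of at least 150 bp. The same held for all 3246 short DHS with 1 gene in L1 arrest and all 7076 in the embryo, so it is not particular to these. In all, 110 whole DHS stood behind the 114 entries of L1 arrest and 211 behind the 221 of the embryo.

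**Figure D1:**
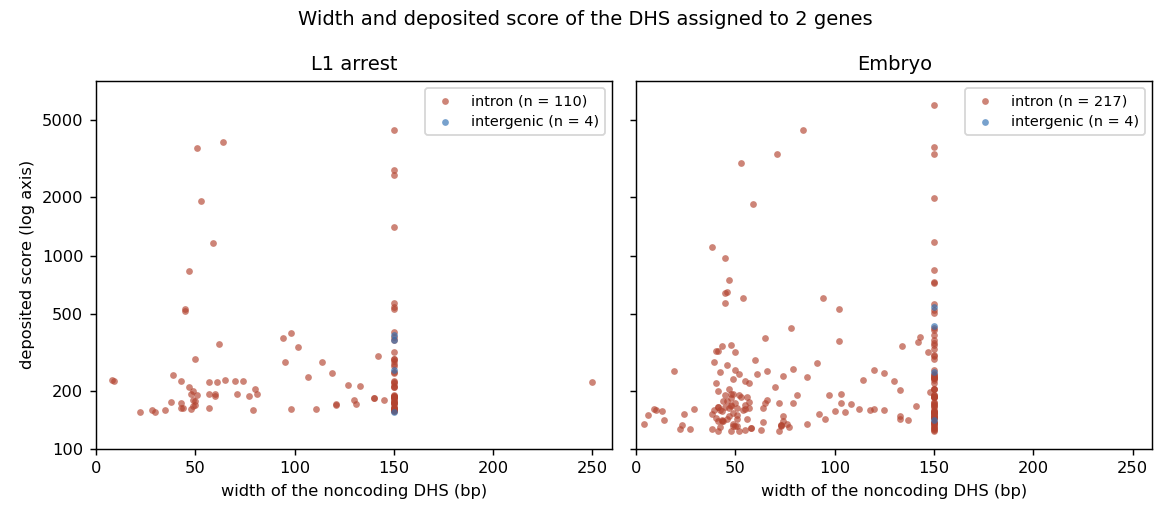
Width in bp against the authors' deposited score on a log axis for each DHS assigned to 2 genes, in L1 arrest (left, n = 114) and the embryo (right, n = 221), with intronic DHS in red and intergenic ones in blue. Points pile up at 150 bp and spread below it, the 4 intergenic DHS of each stage all lie at 150 bp, and high scores occur among both short and full-width DHS, with a highest value of 4450 in L1 arrest and 6047.41 in the embryo.

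The 335 entries of both stages fell on 155 gene pairs made of 295 genes. Of these genes 283 were coding genes in RefSeq's WBcel235 table, 3 were pseudogenes and 9 had no match. In 108 pairs (69.7%) 1 gene lay inside the span of the other, in 22 the spans overlapped in part, in 17 they did not overlap and in 8 a gene was unmatched. The gene models behind the files are those of an older WormBase release, and whether the pairs that stand apart in WBcel235 overlapped there was not tested. A total of 72 pairs had such DHS at both stages, 10 at L1 arrest and not in the embryo, and 73 in the embryo and not at L1 arrest. The lists held 16084 noncoding DHS in L1 arrest and 26644 in the embryo. Of these, 11.4% in L1 arrest overlapped no embryo one, and 53.5% in the embryo overlapped one of L1 arrest. The 73 include F41C6.2 with F41C6.3, and the 10 include C30F2.2 with C30F2.3. There the other stage had overlapping DHS listed with 1 gene. Whether the pairs differ from this background was not tested.

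For the inner gene of a nested pair, the shared DHS were all it had. This was so for 56 of 56 nested pairs with such DHS in L1 arrest and for 101 of 101 in the embryo. The outer gene had no DHS of its own in 15 of these 56 pairs in L1 arrest and in 13 of 101 in the embryo. Because positions in an inner gene also lie within the outer one, the first count is tied to how genes were assigned. Over all genes with a shared DHS, 98 of 160 (61.3%) in L1 arrest and 155 of 276 (56.2%) in the embryo had no DHS listed to them alone. Most of these, 73 in L1 arrest and 106 in the embryo, had only 1 noncoding DHS in all. Any count of DHS for a gene with none of its own is thus a count it shares with its neighbour.

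One locus held more of them than any other. The gene nhr-27, a member of the large nuclear hormone receptor family on chromosome X, shared 10 of its 13 noncoding DHS in L1 arrest and 18 of its 28 in the embryo. Its partners over both stages were 5 genes, of which L1 arrest had rgs-2, gei-3 and pgp-12. They are rgs-2, a regulator of G protein signalling, gei-3, named as a GEX-interacting protein, the ABC transporters pgp-12 and pgp-13, and the aldehyde dehydrogenase family gene alh-13. With rgs-2 it shared 4 DHS in L1 arrest and 8 in the embryo, and these were all the noncoding DHS rgs-2 had. With gei-3 it shared 5 in L1 arrest and 7 in the embryo, of 12 and 19 that gei-3 had in L1 arrest and the embryo.

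The nhr-27 DHS varied widely in score. The score is the authors' own value for a peak and is used here only to place a DHS within its own list. The highest was shared with gei-3, at chrX:12800841-12800990 in ce10 coordinates, with a score of 569.59 in L1 arrest, above 93.2% of that list, and 846.55 in the embryo, above 95.9% of that list. It held 2 footprints in L1 arrest and 5 in the embryo. With rgs-2, the DHS at chrX:12721481-12721630 in L1 arrest scored 403.72, and the embryo DHS that overlapped it, at chrX:12721501-12721650, scored 522.94, with 4 footprints in L1 arrest and 5 in the embryo. At the low end stood the embryo DHS at chrX:12725121-12725270 with 125.38, above 3.33% of the embryo list, and no L1 DHS overlapped it. Of DHS with 1 gene, 88.6% in L1 arrest and 53.6% in the embryo overlapped a noncoding DHS of the other stage. Of the locus's shared DHS, 8 of 10 in L1 arrest overlapped an embryo DHS and 8 of 18 in the embryo overlapped one of L1 arrest, with no test. The 2 of L1 arrest without an embryo counterpart were shared 1 with pgp-12 and 1 with gei-3. They are in the authors' arrest-associated list, which holds exactly the L1 noncoding DHS that no embryo noncoding DHS overlaps, so that listing adds nothing to the overlap.

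At unc-17 and cha-1 every noncoding DHS of either gene was assigned to both, 4 in L1 arrest and 4 in the embryo. The highest score fell on an intergenic DHS listed 238 bp from the genes in L1 arrest and 218 bp in the embryo. It lay at chrIV:3613401-3613550 in L1 arrest, with a score of 389.42 and 4 footprints, and at chrIV:3613421-3613570 in the embryo, with a score of 542.83 and 5 footprints. Further along, a DHS near 10.2 kb from the first scored 179.94 in L1 arrest, above 27.4% of its list, and 239.45 in the embryo, above 67.8%. The last, at about 14.4 kb and also intergenic, scored 155.70 in L1 arrest, above only 2.09% of that list, with 0 footprints, and 141.73 in the embryo, above 19.9%, with 3 footprints. These 3 sites were open at both stages. Each stage had 1 more: the embryo one at chrIV:3621921-3622070 scored 154.47, and the L1 one at chrIV:3619330-3619390, 61 bp wide, scored 222.86, held no footprint and was in the authors' arrest-associated list.

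The neuromuscular pair lev-10 and eat-18 was also shared throughout. The protein LEV-10 helps gather acetylcholine receptors at the body-wall neuromuscular junction, and EAT-18 is a small membrane protein needed for nicotinic receptors of the pharynx. All 3 noncoding DHS of these genes in L1 arrest and all 5 in the embryo were assigned to both. Their scores ran between 257.06 and 835.61 in L1 arrest and between 164.72 and 744.55 in the embryo. All 3 of L1 arrest overlapped an embryo DHS, as did 88.6% of L1 DHS with 1 gene.

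**Figure D2:**
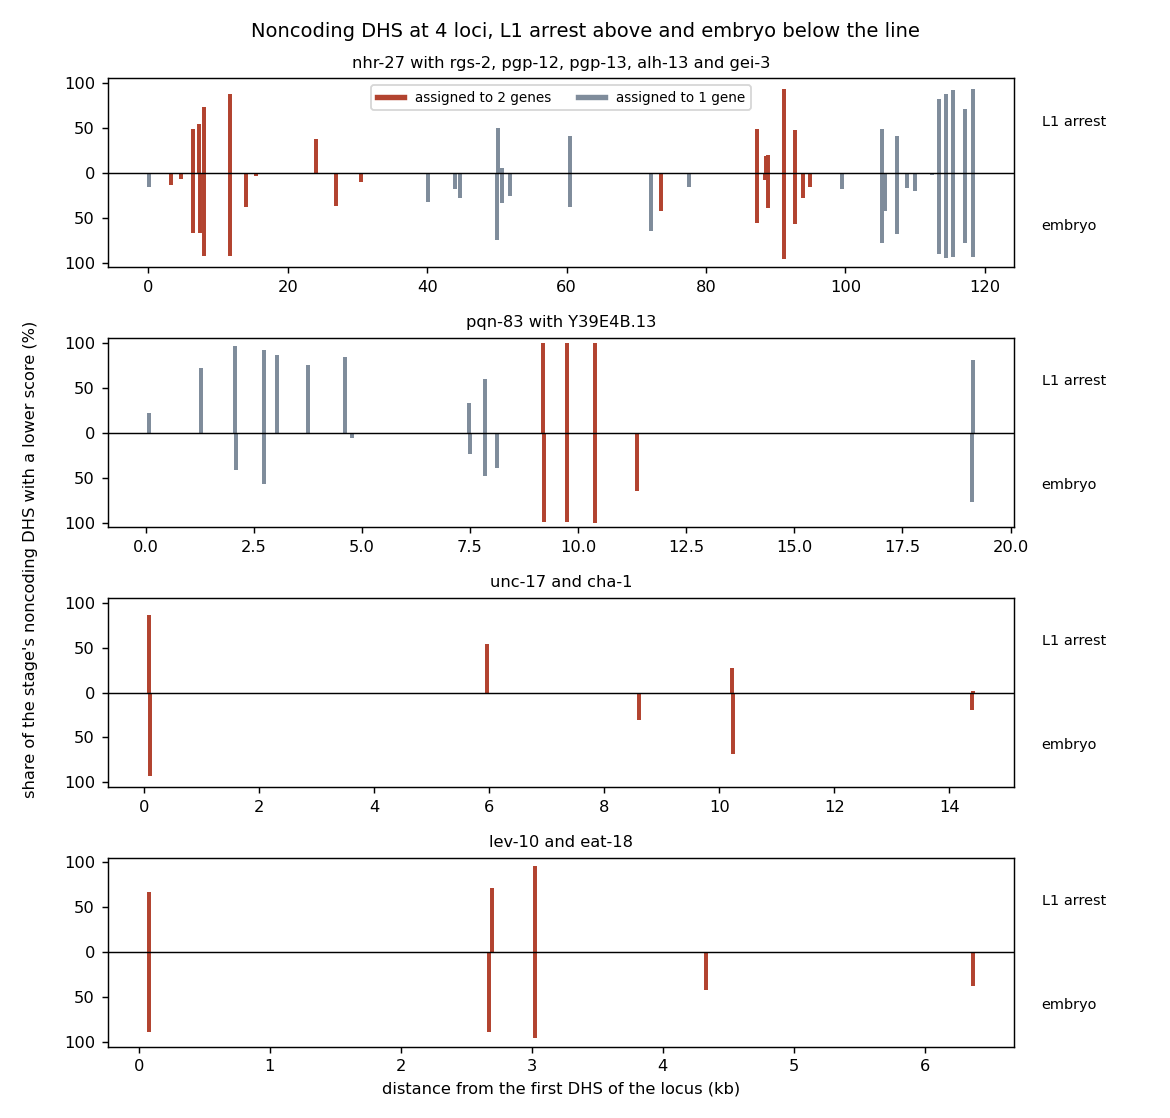
Noncoding DHS at the loci of nhr-27, pqn-83, unc-17 with cha-1, and lev-10 with eat-18, by distance in kb from the first DHS of the locus, with L1 arrest above the line and the embryo below it. The height of a line is the share (%) of the stage's noncoding DHS that score lower, red lines are assigned to 2 genes and grey lines to 1. At unc-17 with cha-1 and at lev-10 with eat-18 all lines are red, and the 3 tall pqn-83 lines lie above at least 99.2% of their list at both stages.

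The highest scores lay at pqn-83, which encodes a protein with a glutamine- and asparagine-rich domain, and Y39E4B.13, a coding gene inside it on chromosome III. The DHS at chrIII:13092361-13092510 scored 4450 in L1 arrest and 6047.41 in the embryo, with 7 footprints at each stage. The next, starting at chrIII:13091207, was 64 bp wide in L1 arrest with a score of 3885.59 and 84 bp wide in the embryo with 4475.03, with 4 footprints in each. The DHS at chrIII:13091721-13091870 scored 2600.67 in L1 arrest, with 6 footprints, and 3657.62 in the embryo, with 4. These 3 DHS lay between 9.2 and 10.4 kb from the first DHS of the locus, and each scored above at least 99.2% of its list. None of the DHS that pqn-83 held alone reached them, the highest scoring 811.20 in L1 arrest and 288.61 in the embryo. The embryo had 1 more shared DHS at this pair, with a score of 227.83 and no footprint.

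Further pairs stood at the top of both lists. The DHS of tbc-10, a gene of the Rab GTPase-activating TBC family, and the pseudogene R06B10.2 scored 2782.80 in L1 arrest and 3355.64 in the embryo. That of lgc-37, a ligand-gated ion channel subunit, and BE10.1 scored 3609.56 in L1 arrest and 3340.86 in the embryo. These scores lay above 99.5% of the L1 list and 99.6% of the embryo list. The DHS was 51 bp wide in L1 arrest and 71 bp in the embryo, and its score is that of the whole peak. The cacn-1 and dml-1 DHS below were short as well, 53 and 59 bp at both stages. At cacn-1, the worm cactin, and K09E4.1 the scores were 1922.94 in L1 arrest and 3028.25 in the embryo, at T28D6.5 and T28D6.6 they were 1412.36 and 1982, and at dml-1 and Y54G2A.17 they were 1159.88 and 1849.42, again in L1 arrest and the embryo. All 8 DHS with the highest scores in L1 arrest overlapped one of the 8 highest in the embryo. Within their own list, 5 of 114 (4.39%) in L1 arrest and 6 of 221 (2.71%) in the embryo were in the top hundredth, and 3 of each came from the pqn-83 pair.

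Among genes that shared many DHS, smg-3, which acts in nonsense-mediated decay, shared all 4 of its DHS in L1 arrest and all 5 in the embryo. The gene Y61B8A.6 on chromosome V shared 4 of 16 in L1 arrest and 5 of 22 in the embryo. Its partners were the chemoreceptor gene srh-102, the C-type lectin gene clec-243 and Y68A4A.10 at both stages, and the chemoreceptor gene srz-47 in the embryo alone. In WBcel235 its span does not overlap any of them. Its DHS with srh-102 carried 6 footprints in L1 arrest and scored 531.64 there and 733.56 in the embryo. Other DHS with many footprints were those of the zinc finger gene ztf-22 with Y48C3A.5, with 4 in L1 arrest and 7 in the embryo, and of the tRNA synthetase gene nars-2 with Y66D12A.24, with 6 in the embryo and no overlapping L1 DHS.

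**Figure D3:**
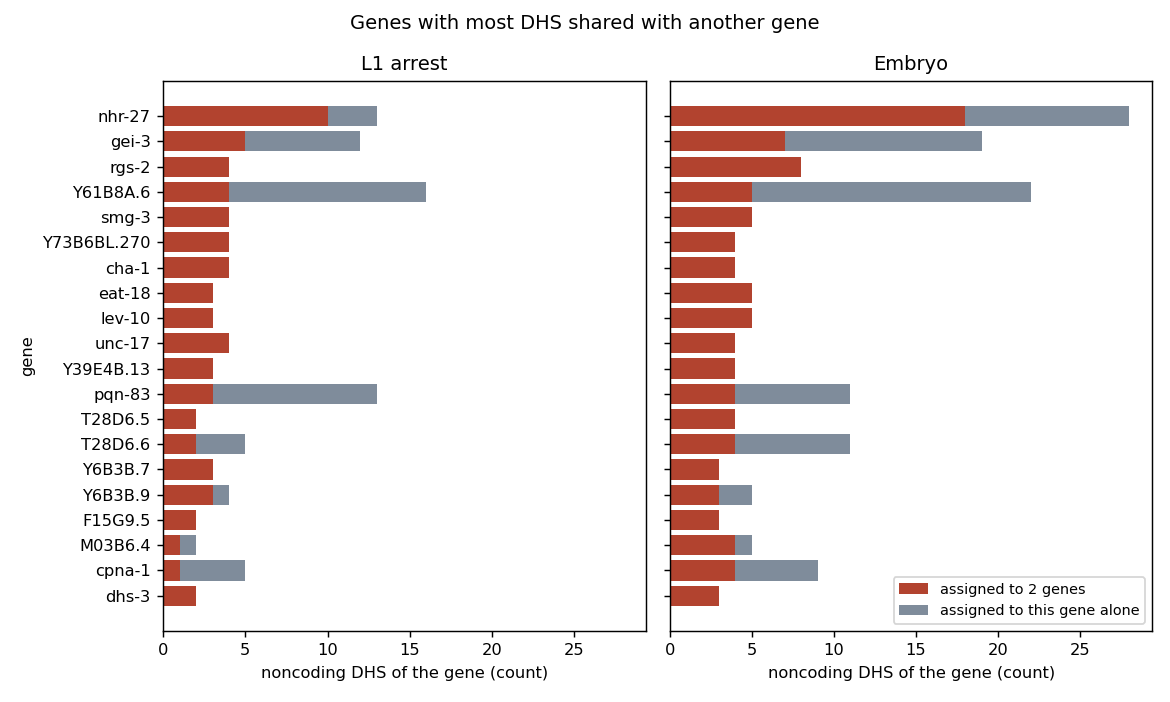
Number of noncoding DHS of the 20 genes with most shared DHS over both stages, in L1 arrest (left) and the embryo (right), split into DHS assigned to 2 genes (red) and DHS assigned to the gene alone (grey). The nhr-27 bars reach 13 in L1 arrest and 28 in the embryo, and bars with no grey part mark genes such as unc-17, cha-1, eat-18, lev-10, rgs-2 and smg-3 that had no DHS of their own.

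Gene families were counted by symbol, with no test. Of all 11435 genes with a noncoding DHS in either stage, 295 (2.58%) shared one. C-type lectin genes, coding for sugar-binding proteins with roles in immunity, had 6 of 103 (5.83%): clec-78, clec-84, clec-153, clec-178, clec-243 and clec-266. Homeobox genes named ceh had 2 of 44, ceh-8 and ceh-10, and neuropeptide genes 3 of 73, flp-28, nlp-2 and nlp-12. Nuclear hormone receptor genes named nhr had 2 of 149, nhr-27 and nhr-114, and chemoreceptor genes 3 of 411. F-box genes had 1 of 164 and lin genes 1 of 37. None was found among 46 ribosomal protein, 66 collagen, 69 microRNA, 21 histone, 32 twk potassium channel, 25 egl and 17 hlh genes. Of 13 gene pairs known from textbooks that were looked for, only unc-17 with cha-1 shared a DHS. DHS assigned to 2 genes were almost all intronic, so genes that lie side by side could hardly share one. That count is thus tied to how genes were assigned.

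The stages were compared next, to see whether sites in 2 genes are open at both. In the embryo 95 of 221 (42.99%, 95% exact binomial interval 36.4 to 49.8%) overlapped an L1 noncoding DHS, against 53.6% of DHS with 1 gene and 53.5% of all embryo noncoding DHS. The odds ratio was 0.654 (0.495 to 0.861), with an adjusted p of 0.00361 by Fisher's exact test, two-sided, over the 6 tests made. Width and location moved with this difference. Among DHS of at least 150 bp the shares were 58.4% against 59.5%, within bins of 25 bp of width the odds ratio was 0.968 (0.732 to 1.28), and among intronic DHS the shares were 41.9% against 48.0%, with an adjusted p of 0.172 by Fisher's exact test.

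From the L1 side, 19 of 114 (16.7%, interval 10.3 to 24.8%) were in the authors' arrest-associated list, that is without an overlapping embryo noncoding DHS, against 11.4% of DHS with 1 gene and 11.4% of all. The odds ratio was 1.56 (0.897 to 2.58) with an adjusted p of 0.152 by Fisher's exact test, so no difference was shown, and the interval allows odds up to 2.58 times as high. The 19 lay in 17 pairs. Their scores lay between 161.20 and 235.22 with a median of 186.80. None was among the 20.0% of the L1 list with the highest scores, 9 held a footprint and 12 were under 150 bp. Of the 19, 5 overlapped an embryo DHS of any kind, coding ones included. Scores, footprints and widths were not counted for all arrest-associated DHS, so these values cannot be called particular to those with 2 genes.

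The arrest-associated DHS with the highest scores were at C32E12.1 with C32E12.4 (235.22), T25B9.9 with T25B9.10 (226.14, on 8 bp), T28D6.5 with T28D6.6 (223.38) and clec-84 with Y54G2A.15 (222.97, on 9 bp). The score of a noncoding entry is that of its whole DHS. For T25B9.9 and for clec-84 the rest of the same peak, assigned to the same pair at chrIV:10772083-10772147 and chrIV:2843708-2843750, overlapped an embryo DHS, so these 2 entries are short parts of peaks open at both stages. The unc-17 and cha-1 site described above came next, followed by scpl-1, a gene of the small C-terminal-domain phosphatase type, with B0379.6 (222.55), then Y73F8A.32 with Y73F8A.33 (221.91) and T10B10.8 with T10B10.9 (193.09). A further one, at chrV:4189281-4189430, lay in nhr-114, a nuclear hormone receptor gene, and Y45G5AM.9, with a score of 178.19 and 1 footprint.

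The genes assigned to a site were also compared between the stages. The same gene models served both stages, so agreement is tied to how genes were assigned. Sites with no DHS in the other stage could not be assigned otherwise there. Of the 242 sites, 93 were assigned to 2 genes in both stages, 126 were in the embryo list with no L1 noncoding DHS there and 19 were in the L1 list with no embryo one. The 4 left were all on chromosome X. At F41C6.2 and F41C6.3 there were 2 embryo DHS assigned to both genes, where L1 listed F41C6.2 alone, and at C30F2.2 and C30F2.3 there were 2 L1 DHS assigned to both, where the embryo listed C30F2.3 alone.

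Footprints, the short protected stretches that bound proteins can leave inside a DHS, were fewer in these DHS. In L1 arrest 76 of 114 (66.7%, interval 57.2 to 75.2%) held one, against 84.1% of DHS with 1 gene and 84.0% of all, with an odds ratio of 0.377 (0.252 to 0.574) and an adjusted p of 1.28e-05 by Fisher's exact test. In the embryo 146 of 221 (66.1%, interval 59.4 to 72.3%) did, against 82.2% of DHS with 1 gene and 82.0% of all, with an odds ratio of 0.423 (0.317 to 0.567) and an adjusted p of 6.15e-08 by Fisher's exact test. Among intronic DHS the shares were closer, 66.4% against 75.9% in L1 arrest and 65.4% against 72.5% in the embryo. The adjusted p there was 0.0779 in each stage by Fisher's exact test. Neither difference passed the threshold among DHS of at least 150 bp or within bins of 25 bp of width. For DHS of at least 150 bp the shares were 88.2% against 92.9% in L1 arrest and 94.8% against 93.3% in the embryo, so the direction turned in the embryo. For those of 60 to under 150 bp they were 65.6% against 68.5% in L1 arrest and 75.9% against 73.4% in the embryo, with no test. Under 60 bp the DHS with 2 genes had the higher share, 32.3% against 23.7% in L1 arrest and 33.7% against 28.1% in the embryo, with overlapping intervals and no test. Within bins of 25 bp of width the odds ratio was 0.959 (0.594 to 1.55) in L1 arrest and 1.25 (0.886 to 1.77) in the embryo.

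**Figure D4:**
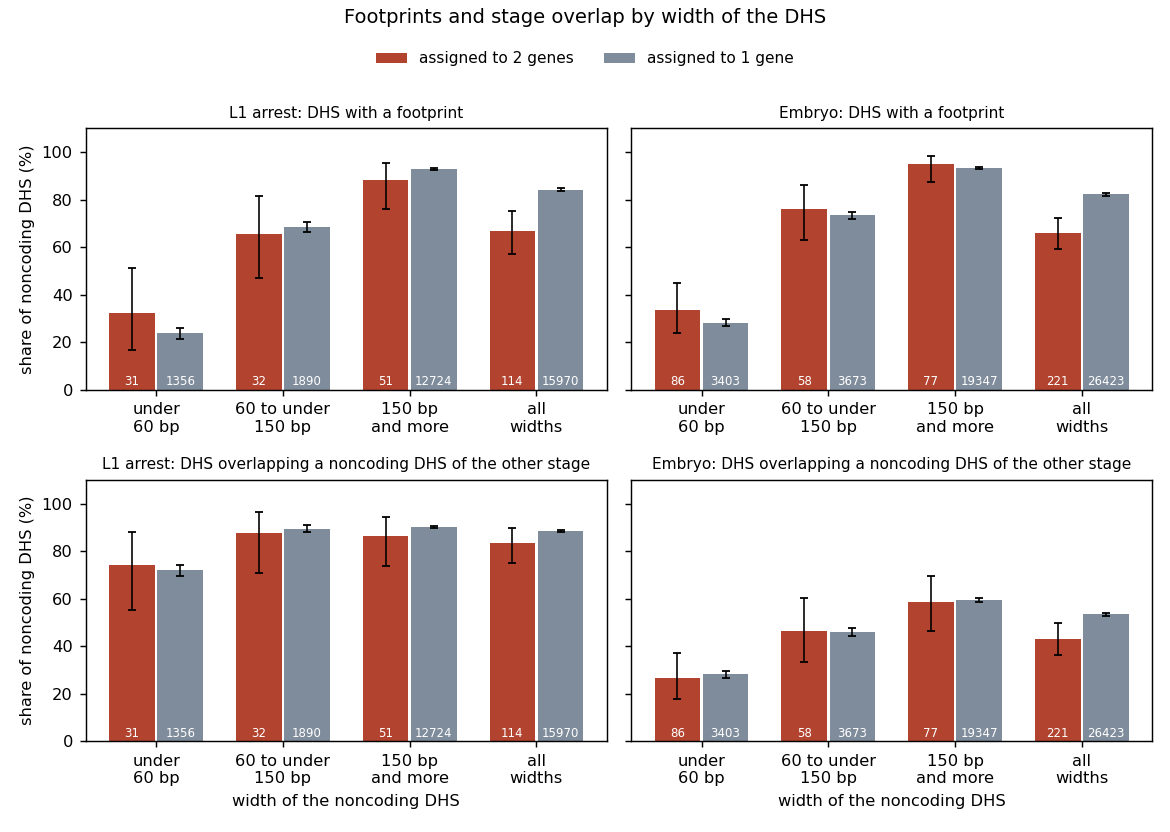
Share (%) of noncoding DHS with a footprint (top) and overlapping a noncoding DHS of the other stage (bottom), in L1 arrest (left) and the embryo (right), by width class, for DHS assigned to 2 genes (red) and 1 gene (grey). Bars are shares with exact binomial 95% intervals and the number of DHS at their foot. Within each width class the intervals of each pair of bars overlap. Under 60 bp the footprint share is higher for DHS assigned to 2 genes at both stages.

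The number of footprints was not compared at equal width and not tested. DHS assigned to 2 genes and with any footprint held 2.39 on average in L1 arrest and 2.26 in the embryo, against 2.47 in L1 arrest and 2.62 in the embryo for DHS with 1 gene. At 150 bp and more the footprints covered a median of 37.3% of the bases in L1 arrest and 33.3% in the embryo, against 36.7% in L1 arrest and 35.3% in the embryo for DHS with 1 gene. The counts ran up to 7, with 38 of 114 in L1 arrest and 75 of 221 in the embryo holding none.

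The share of DHS assigned to 2 genes among the highest scores was tested, not the scores as a whole. In L1 arrest 23 of 114 (20.2%) were in the fifth of the list with the highest scores, against 20.0% of DHS with 1 gene and 20.0% of all, with an odds ratio of 1.01 (0.609 to 1.61). In the embryo it was 45 of 221 (20.4%), against 20.0% of DHS with 1 gene and 20.0% of all, with an odds ratio of 1.02 (0.719 to 1.43). The adjusted p was 1 in both by Fisher's exact test, and the intervals allow odds up to 1.61 times as high in L1 arrest and 1.43 times in the embryo. The median score was 206.42 in L1 arrest and 173.47 in the embryo for DHS with 2 genes, and 214.29 in L1 arrest and 187.03 in the embryo for DHS with 1 gene. The median DHS with 2 genes scored above 45.7% of the list in L1 arrest and 43.1% in the embryo, against 50.0% in each stage for DHS with 1 gene, a gap that was not tested. Parts of 1 peak repeat its score.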

How the data were processed

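DNase I digestion, at 6 levels up to 160 U/mL, was followed by sequencing of fragments under 500 bp from the level with most enrichment, per the series design text. Read length was 50 bp in 3 L1 and 3 embryo replicates and 76 bp in 2 L1 and 1 embryo replicates, per the labels. They were mixed within each stage, and their effect cannot be told apart in merged lists. FastQC, Bowtie 1.0.0, SAMtools and the ce10 build are named in the submitters' processing notes. The authors used HOTSPOT version 3 for peaks, kept those at an IDR of 0.1, removed repeat and blacklist overlaps and merged the replicates of a stage, and footprints were called with DNase2TF at an FDR of 0.05, per the series design text. Genes were assigned by the authors with WormBase WS241 models, per the same text, and the deposited gene tables give the location and a distance in bp. The deposited score of each DHS has no stated scaling and was used to rank within a list. Footprint entries (79107 in L1, 125825 in the embryo) were merged where they overlapped.

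The DHS were found by their identifiers, and coordinates count from 1. Overlap meant at least 1 bp. Two-sided Fisher's exact tests were run on the shares (SciPy 1.17.1), with Benjamini-Hochberg adjustment over 6 tests at a threshold of 0.05, and Mantel-Haenszel odds ratios (statsmodels 0.14.6) were taken within classes of location, width or score. DHS are not independent and are not replicates, so p-values treat neighbours as separate, and intervals cover counting error only. The tests were tried on simulated lists whose DHS were drawn independently, in classes unrelated to the number of genes. Such lists lack the dependence between DHS and the difference in width and location seen here, so the trial does not bear on either. The WBcel235 gene table was used for names, biotypes and nesting. Genes were named by a rule: per stage the 5 DHS with most genes, where all tie at 2 and none is singled out for it, the 8 highest by score, by shared DHS per gene, by footprints and by score among arrest-associated DHS, and textbook pairs; nhr-114 and lev-10 in L1 were added after values were seen. The DHS, lists and tests were chosen with earlier results of these data known. Motif tables and reads were not used here, and no sequence is printed since no genome of this build was used.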

Additional observations from a re-analysis of the deposited data

How the results depend on the processing

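Of 68 alternatives, 51 kept the direction and side of the threshold, 12 kept the direction and lost the call and 5 turned the direction. Odds ratios follow, those with 2 genes over those with 1. For footprints in L1 arrest (0.377 as reported) the call was lost within location classes (0.616), within width bins (0.959), at 150 bp and more (0.574), among intronic DHS (0.625) and with location, width and score together (0.989). For footprints in the embryo (0.423) it was lost within location classes (0.725) and among intronic DHS (0.718), and the direction turned within width bins (1.25), at 150 bp and more (1.30) and with location, width and score together (1.16). For the embryo overlap with L1 (0.654) it was lost within location classes (0.811), width bins (0.968), at 150 bp and more (0.958), among intronic DHS (0.783) and with all 3 together (0.910). The share among the 20.0% with the highest scores, never called, turned with coding genes only in the embryo (0.957) and among intronic DHS in L1 arrest (0.990). The intronic and combined settings, and keeping 1 entry per whole DHS, were chosen after seeing the data. So were leaving out nhr-27 and leaving out pairs that do not overlap in WBcel235 or hold an unmatched gene. The setting of 3 or more genes gave no value, since no DHS had 3. No paired analysis was possible because no replicate letter occurs at both stages and the lists are merged. Depth cannot be read from the lists, and 114 and 221 DHS limit the precision.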

Other observations

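Some pairs held 1 gene with a well-known role, and a few are given here as values, picked by name after the lists were seen and standing for no group. The TOR kinase gene let-363 shared 1 embryo DHS with B0261.6, and rict-1, which encodes a partner of TOR, shared 1 with pqn-32 in L1 arrest and 1 in the embryo. The stress sensor gene ire-1 shared 1 DHS in L1 arrest and 2 in the embryo with unc-105, a gene of the degenerin ion channel family. The steroid hormone receptor gene daf-12, known for its part in dauer formation, shared 1 in L1 arrest and 1 in the embryo with F11A1.2. The stress response regulator skn-1 shared 1 embryo DHS with clec-178, the Smad gene sma-2 shared 1 with ZK370.8, and the homeobox gene ceh-10 shared 1 with polq-1, and the L1 list had none for these 3 pairs. Of all embryo noncoding DHS, 53.5% overlapped one of L1 arrest, so such absence is common. The sma-2 and ceh-10 DHS were 47 and 42 bp wide and held no footprint. They scored above 25.5% and 7.41% of the embryo list.

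The titin-related gene ttn-1 shared 2 DHS in L1 arrest and 2 in the embryo with the potassium channel gene exp-2, and the hemicentin gene him-4 shared 2 in L1 arrest and 3 in the embryo with F15G9.5. For 10 pairs, DHS assigned to both genes were in the L1 list alone. They include C30F2.2 with C30F2.3, where the embryo listed overlapping DHS to C30F2.3 alone. Of all L1 noncoding DHS, 11.4% overlapped no embryo noncoding DHS. Among the 10, the muscle zinc finger gene unc-98 with pcyt-1 and the ether lipid synthesis gene ads-1 with Y50D7A.1 each had 1. So did gtl-1 with C05C12.1 and the acetyl-CoA carboxylase gene pod-2 with W09B6.5.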
